A study of Mus musculus with 9 samples.

Results

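The metabotropic glutamate receptors examined here are the 6 genes Grm2, Grm3, Grm4, Grm5, Grm7 and Grm8. They were chosen by name: every probe set whose platform annotation gave one of these symbols and no other was taken, which gave 109 of the 318760 probe sets with a single symbol. A probe set is a group of probes within an exon. Dim ones were left out: to be kept, a probe set needed an average of at least 6.07 (log2) across the 9 arrays, which is the table's median. Of the 109 probe sets, 95 were kept, and all 6 genes were among the 16770 genes with at least 3 kept probe sets that were tested. Gene values below are averages of the kept probe sets on the log2 scale.

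The sample labels and the series' own description differ on the cells (cortical against motor neurons) and on the day from which the 11 days to harvest are counted, and the sample labels are followed here. The study asked how the RNA of neurons depends on Tdp-43, a nuclear RNA-binding protein encoded by Tardbp. Primary cortical neurons came from C57BL/6 mouse embryos on embryonic day 15 and received AraC, which kills dividing cells, on day 2 of culture. On day 5 they were infected for 4 h with a lentivirus, and they were harvested on day 11. The 3 groups differed in the short hairpin RNA that the virus carried: shCont as control, and shTdp-43-1 or shTdp-43-2, which both target mouse Tdp-43. No group was left without virus, so infection and a hairpin were shared by all 9 arrays. Also shared were the removal of the meninges, the growth factors BDNF and CNTF in the medium, and 1% fetal bovine serum. The labels do not give the promoter of the hairpins or the share of cells infected. They also do not say whether the 3 replicates of a group came from separate cultures, so p-values measure the spread between these samples, which may be technical.

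Metabotropic glutamate receptors are class C G protein-coupled receptors that bind glutamate with a large extracellular domain and act as dimers. Group I receptors, here Grm5, couple to Gq and phospholipase C and sit mainly at the edge of the postsynaptic membrane, where Homer scaffolds hold them. Group II (Grm2 and Grm3) and group III receptors (Grm4, Grm7 and Grm8) couple to Gi and Go, lower cyclic AMP and reduce transmitter release at many terminals. In the cortex Grm3 and Grm5 are also made by astrocytes, and Grm2 largely by neurons.

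Tardbp fell to 30.4% of the control level with shTdp-43-1 and to 30.9% with shTdp-43-2 (limma adjusted p = 0.000349 and 0.000109). Array medians over the tested genes lay between 8.75 and 8.94, and arrays of one group correlated across genes with r from 0.985 to 0.994. Over all probe sets of the table, the array medians were 6.15, 6.19 and 6.18 with shTdp-43-1. They were 6.04, 6.06 and 6.05 in shCont and 6.06, 6.06 and 6.09 with shTdp-43-2. All shTdp-43-1 arrays thus lay above all others, and the cause of this was not tested. Of the 11 markers of neurons listed, 10 were tested and the other, Rbfox3, was not analysed here. Markers of every other cell type listed also passed the filter, so passing it does not show that a cell type was present.

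With shTdp-43-2, Grm8 rose 1.61-fold, Grm3 rose 1.31-fold and Grm2 fell to 67.1% of the control level. With shTdp-43-1 none of the 6 genes was called by limma, and their log2 changes lay between -0.10 and 0.07. Grm4, Grm5 and Grm7 were not called with either hairpin. A gene was called where limma's adjusted p over all 16770 genes was under 0.05. By that rule 3 of the 6 receptors were called with shTdp-43-2, against 21.9% of all genes tested. Of the 6, 2 were called higher and 1 lower, against 7.76% and 14.1% of all genes. With shTdp-43-1 limma called 0 of 6, against 11.1% of all genes, and 0 of 6 had an unadjusted p under 0.05. The arrays of shTdp-43-1 overlapped the controls for all 6 receptors, while 35.0% of all genes had groups that did not overlap. The median log2 change of the 6 genes came to 0.13 (shTdp-43-2) and 0.02 (shTdp-43-1), against -0.0075 and 0.0060 over all genes.

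**Figure D1:**
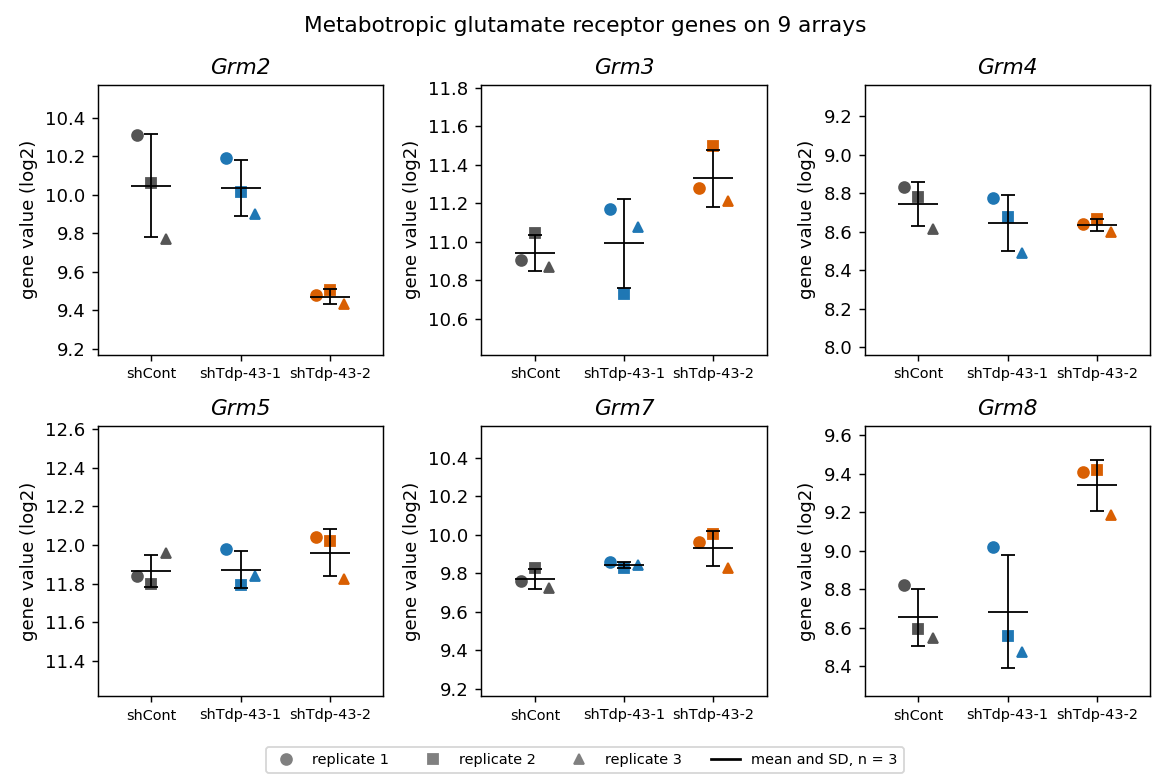
Gene value (log2, vertical axis, the same span of 1.4 in each panel) of each receptor gene on 9 arrays, by group; symbols are the replicates, lines the mean with its SD (n = 3). The shTdp-43-2 arrays of Grm2 lie below, and those of Grm3 and Grm8 above, all arrays of the other groups.

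The promoters of Grm2 and Grm8 are shown because these genes had the largest changes of the 6, in opposite directions. Each sequence runs 5′ to 3′ from 250 bases before to 50 bases after the start given by RefSeq (GRCm38.p6), and capitals mark GC boxes, the letters GGGCGG or, on the other strand, CCGCCC. The Grm2 promoter lies on the minus strand at chr9:106656060-106656359. Grm8 has 3 starts in the table, and the one shown is the most upstream, on the minus strand at chr6:28135097-28135396.
Grm2: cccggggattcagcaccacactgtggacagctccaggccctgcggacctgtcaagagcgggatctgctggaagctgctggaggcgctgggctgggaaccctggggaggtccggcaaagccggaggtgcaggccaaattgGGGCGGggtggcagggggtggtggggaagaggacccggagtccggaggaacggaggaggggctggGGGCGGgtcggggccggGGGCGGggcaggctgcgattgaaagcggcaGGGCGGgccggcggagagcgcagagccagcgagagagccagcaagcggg
Grm8: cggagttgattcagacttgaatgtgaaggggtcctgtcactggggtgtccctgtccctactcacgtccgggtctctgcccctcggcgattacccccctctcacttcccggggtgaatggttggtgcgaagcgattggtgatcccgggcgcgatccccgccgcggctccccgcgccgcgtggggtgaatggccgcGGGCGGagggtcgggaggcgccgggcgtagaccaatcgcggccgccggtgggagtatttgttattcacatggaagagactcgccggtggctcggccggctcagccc

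The Grm2 promoter held 4 GC boxes and the Grm8 promoter 1, while 35.7% of the 32851 promoters of this length held at least 1. The promoter of Grm3 held 2 and each of the 2 promoters of Grm7 held 1. The other 2 promoters of Grm8 held 0. GC content was 72.0% in the Grm2 promoter and 67.0% in the Grm8 promoter shown, against a median of 52.7% over all promoters. It was 43.3% and 54.0% in the other 2 promoters of Grm8. The TATA box TATAAA (both strands searched) was found in none of the 7 promoters of these 4 genes, and in 13.6% of all. The CCAAT box (CCAAT on either strand) occurred once in the Grm2 promoter and 2 times in the Grm8 promoter shown, where 37.4% of all promoters held it. The cyclic AMP response element TGACGTCA, which reads the same on both strands, was in none of the 7 and in 1.79% of all. These counts describe letters in a window, and the arrays did not measure promoter use. Grm4 and Grm5 are not in the table.

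Among the group II receptors, which share their ligands and their coupling, the 2 members went opposite ways with shTdp-43-2. Grm2, a presynaptic receptor that limits glutamate release, had gene values of 10.31, 10.06 and 9.77 on the shCont arrays. The values were 10.19, 10.01 and 9.90 with shTdp-43-1 and 9.48, 9.50 and 9.43 with shTdp-43-2. The 3 arrays of shTdp-43-2 were lower than all the others and lay close together, while the arrays of shCont and shTdp-43-1 overlapped almost wholly. The means were 10.05 ± 0.269 (SD, n = 3) in shCont, 10.03 ± 0.147 in shTdp-43-1 and 9.47 ± 0.0379 in shTdp-43-2.

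Grm2 changed by log2 -0.58 ± 0.125 (SE) with shTdp-43-2 (95% interval -0.85 to -0.30, limma adjusted p = 0.00673). Its log2 change under shTdp-43-1 came to -0.01 ± 0.125 (interval -0.29 to 0.26, limma adjusted p = 0.955). The difference between the hairpins was itself called: Grm2 was lower with shTdp-43-2 than with shTdp-43-1 by log2 0.56, written as -0.56 ± 0.125 (limma adjusted p = 0.0141), where 11.5% of all genes were called. The call between the hairpins was lost with weaker filters on dim probe sets (log2 -0.36 at the 25th percentile of the table and with no filter) and with the median in place of the mean of the probe sets.

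Grm3, found on terminals, dendrites and astrocytes, had gene values of 10.91, 11.05 and 10.87 on the shCont arrays. With shTdp-43-1 they were 11.17, 10.73 and 11.08, and with shTdp-43-2 11.28, 11.50 and 11.21. The shTdp-43-1 arrays spread to both sides of the controls, and the shTdp-43-2 arrays lay above all the others. Grm3 rose by log2 0.39 ± 0.120 (SE) with shTdp-43-2 (interval 0.13 to 0.65, limma adjusted p = 0.0369). The log2 change with shTdp-43-1 was 0.05 ± 0.120 (limma adjusted p = 0.805), and the difference of 0.34 ± 0.120 between the hairpins was not called (limma adjusted p = 0.0933).

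The call of Grm3 did not hold up when single arrays were left out. It was lost without any 1 of the shCont replicates 1, 2 and 3 (limma adjusted p = 0.107, 0.0529 and 0.112). Leaving out shTdp-43-2 replicate 1 or 2 also lost it (limma adjusted p = 0.0657 and 0.124). It was also lost with the median of the probe sets (limma adjusted p = 0.143) and when genes with 1 kept probe set were tested too (0.0664), while its direction held in all 20 other settings.

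Group III receptors are presynaptic autoreceptors of low (Grm7) or high (Grm4 and Grm8) affinity for glutamate. Grm8 had gene values of 8.82, 8.59 and 8.55 on the shCont arrays. They were 9.02, 8.56 and 8.47 with shTdp-43-1 and 9.41, 9.42 and 9.19 with shTdp-43-2. All 3 shTdp-43-2 arrays were above all 6 others, and the highest of the others was shTdp-43-1 replicate 1. The means were 8.65 ± 0.146 (SD, n = 3) in shCont, 8.68 ± 0.292 in shTdp-43-1 and 9.34 ± 0.131 in shTdp-43-2.

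Grm8 rose by log2 0.68 ± 0.138 (SE) with shTdp-43-2 (interval 0.38 to 0.99, limma adjusted p = 0.00437). With shTdp-43-1 the log2 change was 0.03 ± 0.138 (interval -0.27 to 0.33, limma adjusted p = 0.910). Grm8 was 1.58-fold higher with shTdp-43-2 than with shTdp-43-1 (log2 0.66 ± 0.138, limma adjusted p = 0.0107). Both calls held in all 20 other settings run, in which the log2 change with shTdp-43-2 ranged from 0.60 to 0.77.

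Grm7, the receptor of active zones that responds only to high glutamate, had gene values of 9.76, 9.83 and 9.73 in shCont. It had 9.86, 9.83 and 9.84 with shTdp-43-1 and 9.96, 10.00 and 9.83 with shTdp-43-2. The shTdp-43-2 arrays did not overlap the controls, which was so for 38.7% of all genes, but the lowest of them and the highest control both round to 9.83. The log2 change of Grm7 was 0.16 ± 0.0768 (SE) with shTdp-43-2 and 0.07 ± 0.0768 with shTdp-43-1 (limma adjusted p = 0.170 and 0.564). With shTdp-43-2 its interval ran from -0.01 to 0.33, and it was called there under 3 of 20 other settings: a stricter dim filter, arrays centred on their median and quantile normalization.

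Grm4, best known from cerebellar granule cells, had gene values of 8.83, 8.78 and 8.61 in shCont. With shTdp-43-1 it had 8.77, 8.67 and 8.49 and with shTdp-43-2 8.64, 8.67 and 8.60. All 3 groups overlapped. Both hairpins gave small log2 changes of Grm4, -0.10 ± 0.0930 (SE) for shTdp-43-1 and -0.11 ± 0.0930 for shTdp-43-2 (limma adjusted p = 0.521 and 0.460), and the intervals from -0.30 to 0.11 and from -0.31 to 0.10 leave room for a change of either sign.

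Grm5, the group I member, which drives calcium release through inositol trisphosphate, had gene values of 11.84, 11.80 and 11.96 in shCont. It had 11.98, 11.79 and 11.84 with shTdp-43-1 and 12.04, 12.02 and 11.82 with shTdp-43-2. The 3 groups overlapped, and shTdp-43-2 replicate 3 lay within the control range. Its log2 change was 0.01 ± 0.0901 (SE) with shTdp-43-1 (interval -0.19 to 0.20) and 0.10 ± 0.0901 with shTdp-43-2 (interval -0.10 to 0.29), with limma adjusted p = 0.967 and 0.492.

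**Figure D2:**
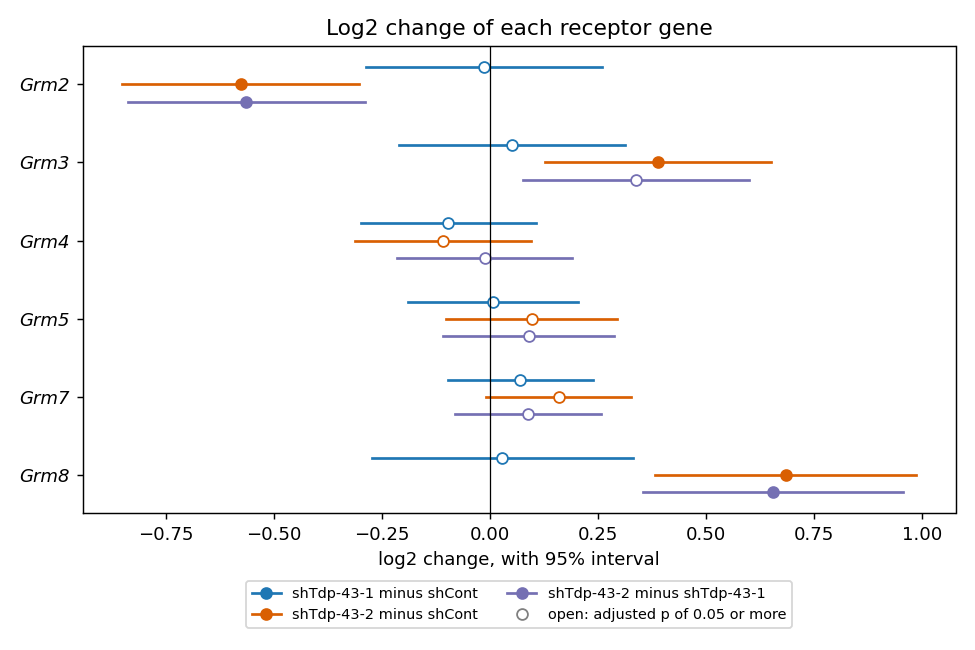
Log2 change of each receptor gene (horizontal axis) with its 95% interval in 3 contrasts; filled points have a limma adjusted p under 0.05. Grm2 and Grm8 are filled both for shTdp-43-2 against shCont and for shTdp-43-2 against shTdp-43-1, and Grm3 for the first of these alone.

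In the mean of both hairpins limma called 0 of the 6 receptors, against 19.3% of all genes, and 2 had an unadjusted p under 0.05. These were Grm8 (log2 0.36 ± 0.119, limma adjusted p = 0.0573) and Grm2 (-0.29 ± 0.108, limma adjusted p = 0.0804). The arrays of both hairpins together overlapped the controls for all 6 genes, where 18.7% of all genes showed no overlap. Between the hairpins 2 of 6 receptors were called, Grm2 lower and Grm8 higher with shTdp-43-2, where 7.31% of all genes were called lower and 4.22% higher. Grm2, Grm3 and Grm8 showed no overlap between the hairpins, as did 27.9% of all genes, while Tardbp itself differed by log2 0.03 ± 0.186 (limma adjusted p = 0.956). Each comparison with shCont used the same 3 control arrays.

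Other ways of bringing the arrays to one scale moved the median log2 change of all genes with shTdp-43-2 from -0.0075 to 0.0683 (arrays centred on their median) and to 0.0127 (quantile normalization). The split of all called genes with shTdp-43-2 moved from 1301 higher and 2366 lower to 2055 and 1757 and to 1793 and 2113. The fall of Grm2 was then log2 -0.50 and -0.51, and the rise of Grm8 0.76 and 0.77, each still called.

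Along the genes, the change with shTdp-43-2 was shared by most probe sets of Grm8, Grm3 and Grm2. Of 20 kept probe sets of Grm8, 20 were higher with shTdp-43-2 than in shCont and 16 had all 3 arrays above all 3 controls, with log2 changes from 0.08 to 1.07 and a median of 0.75. With shTdp-43-1 the same probe sets split into 11 higher and 9 lower, with a median of 0.02. All 12 kept probe sets of Grm3 were higher with shTdp-43-2, 9 of them with no overlap, at log2 changes between 0.24 and 0.64. Of 10 kept probe sets of Grm2, 8 were lower with shTdp-43-2 and each of these 8 had all 3 arrays below all 3 controls, with -1.08 as the largest fall of a mean. Probe sets of a gene share the RNA of an array and are no replicates, so these counts describe how even a change was along the gene. The share of all kept probe sets without overlap was not counted. At gene level, 38.7% of all genes showed no overlap with shTdp-43-2.

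The receptors that were not called had smaller median changes over their probe sets. With shTdp-43-2, 16 of 19 kept probe sets of Grm7 and 14 of 17 of Grm5 were higher than in shCont, with median log2 changes of 0.18 and 0.14, while 13 of 17 of Grm4 were lower (median -0.14). With shTdp-43-1 the counts of higher probe sets were 15 of 19 for Grm7, 7 of 17 for Grm5 and 6 of 17 for Grm4.

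**Figure D3:**
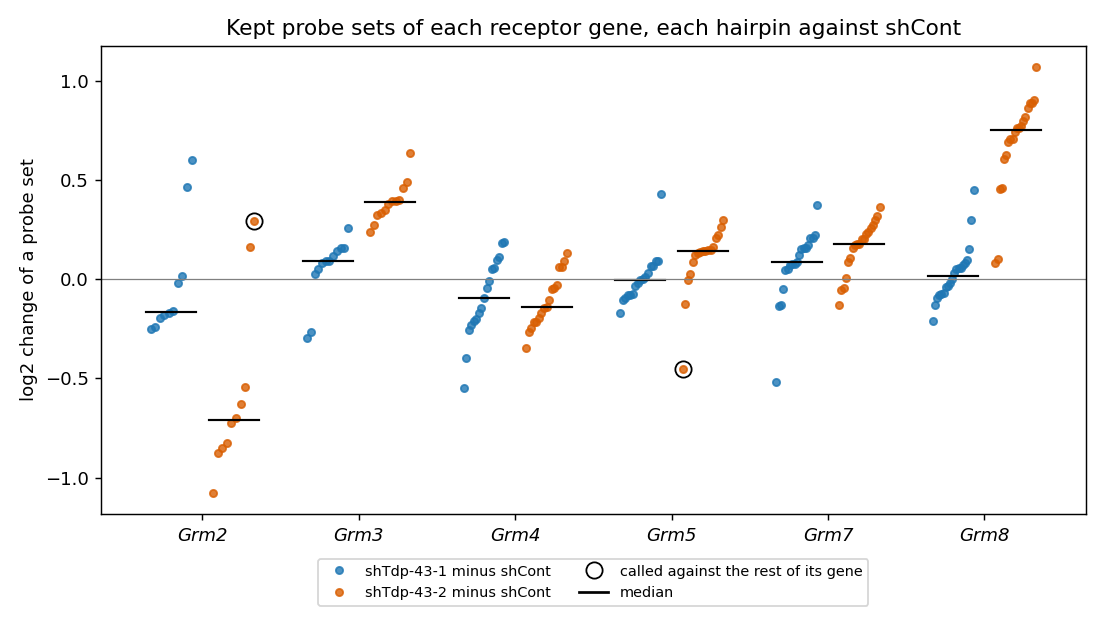
Log2 change (vertical axis) of every kept probe set of each receptor gene with shTdp-43-1 and shTdp-43-2 against shCont; black lines are medians and circles mark probe sets called against the rest of their gene. All 20 Grm8 points lie above 0 with shTdp-43-2, and 2 Grm2 points stand apart from the other 8.

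Each kept probe set was also set against the rest of its gene with limma's diffSplice, which asks whether an exon moved differently from the gene around it (its usage). The spread that diffSplice uses is pooled over all kept probe sets and arrays of a gene, as if probe sets were independent. Probe sets of a gene share the RNA of an array, so diffSplice p-values may be too small. Of the 95 probe sets of the 6 receptors, 2 were called with shTdp-43-2, against 1.24% of all 248701 probe sets. In the mean of the hairpins 1 was called (0.986% of all). With shTdp-43-1 diffSplice called 0, against 0.494% of all, and 6 of 95 had an unadjusted p under 0.05. Between the hairpins diffSplice called 0 (0.440% of all), and 9 of 95 had an unadjusted p under 0.05. The share of all probe sets at that unadjusted threshold was not counted, so no difference in usage is read from these counts.

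Probe set 4561070 of Grm2 ran against its gene. It read 9.69, 9.54 and 9.59 in shCont, 10.17, 9.97 and 10.49 with shTdp-43-1 and 9.85, 9.83 and 10.03 with shTdp-43-2. All 6 knockdown arrays were above all 3 controls, although the gene value of Grm2 was lower with shTdp-43-2. Its usage was higher by log2 0.97 ± 0.230 (SE) with shTdp-43-2 (diffSplice adjusted p = 0.0116) and by 0.83 ± 0.199 in the mean of the hairpins (diffSplice adjusted p = 0.0166). With shTdp-43-1 the usage difference of 0.68 ± 0.230 was not called (diffSplice adjusted p = 0.263).

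The shTdp-43-2 call of this probe set was lost without shCont replicate 1 or 2 or shTdp-43-2 replicate 3 (diffSplice adjusted p = 0.0574, 0.131 and 0.134) and with the 2 weaker dim filters. Probe set 4698935 of Grm2, singled out after its values were seen, was the only other kept probe set of the gene not lower with shTdp-43-2. It read 7.08, 7.22 and 7.48 in shCont and 7.46, 7.25 and 7.55 with shTdp-43-2, so that the groups overlapped, and its usage difference of 0.82 ± 0.230 was not called (diffSplice adjusted p = 0.0523).

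At the other end, probe set 4337108 of Grm2 had the largest fall of the gene. It read 10.70, 10.29 and 9.82 in shCont and 9.09, 9.54 and 8.96 with shTdp-43-2. Its usage difference of -0.56 ± 0.230 was not called (diffSplice adjusted p = 0.410).

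Probe set 4868335 of Grm5 was the dimmest of its kept probe sets. It read 7.44, 7.12 and 7.55 in shCont, 7.40, 7.30 and 6.90 with shTdp-43-1 and 7.17, 7.00 and 6.59 with shTdp-43-2. Its highest shTdp-43-2 array lay just above the lowest control. Its usage was lower with shTdp-43-2, at log2 -0.58 ± 0.134 (SE, diffSplice adjusted p = 0.00560). That SE was shared by all kept probe sets of Grm5. The SDs of this probe set alone were larger, 0.226 in shCont and 0.295 in shTdp-43-2 (n = 3). The call was lost without shCont replicate 1 or 3 or shTdp-43-2 replicate 3 (diffSplice adjusted p = 0.0921, 0.0609 and 0.0868) and with no dim filter (0.0728). A dim filter at the 75th percentile of the table (7.756) removed this probe set, whose mean over the arrays was 7.16.

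The Grm5 probe set with the largest rise in usage in the mean of the hairpins, 4666910, read 10.47, 10.72 and 10.85 in shCont and 11.18, 10.98 and 11.17 with shTdp-43-1. Its usage difference there was 0.45 ± 0.134 (diffSplice adjusted p = 0.123).

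In Grm8 no probe set was called against the rest of the gene, but 2 had changes of only 0.10 and 0.08 with shTdp-43-2. Probe set 4524869 read 9.34, 8.70 and 9.16 in shCont and 9.18, 9.20 and 9.13 with shTdp-43-2, a usage difference of -0.61 ± 0.223 (diffSplice adjusted p = 0.236). Probe set 5400273, singled out after its values were seen, read 10.41, 9.77 and 9.97 in shCont and 10.51, 9.90 and 9.97 with shTdp-43-2 (usage -0.64 ± 0.223, diffSplice adjusted p = 0.193). Probe set 4744663 moved most: 8.39, 8.33 and 8.41 in shCont against 9.46, 9.62 and 9.25 with shTdp-43-2. Its usage difference of 0.40 ± 0.223 was not called either (diffSplice adjusted p = 0.786).

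**Figure D4:**
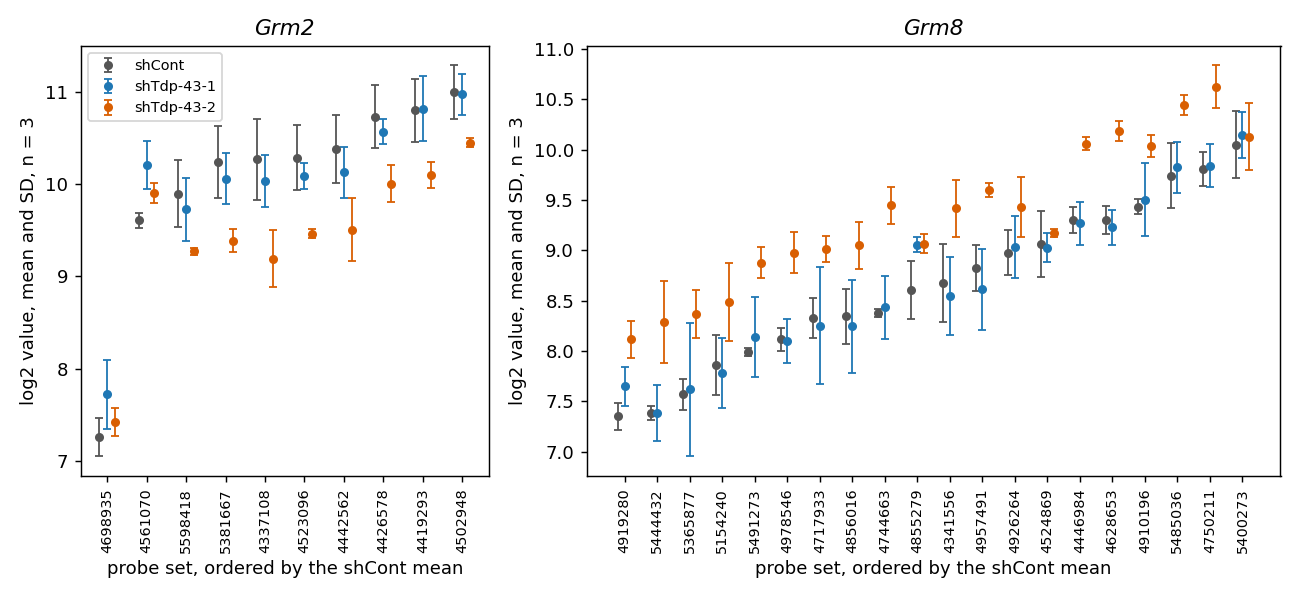
Log2 value (vertical axis, mean with SD, n = 3) of each kept probe set of Grm2 (left) and Grm8 (right) in the 3 groups, ordered by the shCont mean. In Grm2 8 of 10 probe sets are lower with shTdp-43-2 and probe set 4561070 is higher with both hairpins, and in Grm8 probe sets 4524869 and 5400273 stay near the controls.

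The ends of the range in the other genes were not called in any contrast with shCont. In the mean of the hairpins the usage differences of Grm3 ran from -0.27 ± 0.209 (probe set 4400558) to 0.19 ± 0.209 (4315079). Those of Grm4 ran from -0.32 ± 0.177 (5582594) to 0.26 ± 0.177 (4676577), and those of Grm7 from -0.29 ± 0.156 (5019147) to 0.16 ± 0.156 (5197442). Probe set 5019147 of Grm7 read 6.45, 7.11 and 7.10 in shCont, 5.88, 6.64 and 6.57 with shTdp-43-1 and 6.55, 7.82 and 6.90 with shTdp-43-2. Its usage difference with shTdp-43-1 was -0.62 ± 0.180 (diffSplice adjusted p = 0.0958). It was also 1 of the 2 kept probe sets nearest to the dim filter, with a mean of 6.78 over the arrays, beside 4603679 of Grm7 at 6.69. Just under the filter lay 5039136 of Grm8 at 6.03 and 5300984 of Grm2 at 5.81.

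The 14 probe sets that were not kept belonged to Grm2 (5), Grm8 (4), Grm7 (3), Grm4 (1) and Grm5 (1). Exon positions were not used here, so the exons of these probe sets are named by ID alone.

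The genes whose values ran most like each receptor over the 9 arrays were as follows, given as Pearson's r over 9 arrays that share 3 groups, hybridisation and scaling, and with no test. Closest to Grm2 were Pdha1, Ess2 and Foxk2 (r = 0.985, 0.979 and 0.976). For Grm3 they were Ttll5, Odz3 and Eif4g3 (0.960, 0.953 and 0.953). Closest to Grm8 were Kazn, Slco3a1 and Nnmt (0.989, 0.989 and 0.975). Those of Grm7 were Dlgap1, a scaffold of the postsynaptic density, with Sap130 and Kif3c (0.956, 0.947 and 0.943). Grm4 ran with Fig4, Gpr25 and Cplx1 (0.976, 0.960 and 0.959) and Grm5 with Zfp811, Pcdhgb7 and Tln1 (0.979, 0.966 and 0.962).

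Some markers of astrocytes, inhibitory neurons, fibroblasts and pericytes were called with shTdp-43-2. Some were also called with shTdp-43-1, with which no receptor was called. The shares of all genes called lower and higher with shTdp-43-2 were 14.1% and 7.76%, and 11.1% were called in either direction with shTdp-43-1. Of 12 astrocyte markers, all tested, 4 were called lower with shTdp-43-2 and 0 higher, and the summed linear level of the 12 ran from 14648 to 15663 there, against 16641 to 20330 in shCont. With shTdp-43-1 it ran from 16115 to 17406, and 1 marker was called higher and 2 lower. Of 12 markers of inhibitory neurons, all tested, 4 were called lower and 1 higher with shTdp-43-2. Their sum ran from 13703 to 14890 there, against 14861 to 16131 in shCont. With shTdp-43-1, 2 of these were called higher and 1 lower, and the sum ran from 14574 to 17043. Of 9 markers of fibroblasts and pericytes 8 were tested and 4 were called lower with shTdp-43-2, with a sum from 2703 to 2968 against 4217 to 4292. With shTdp-43-1, 2 of them were called lower and 0 higher, and the sum, 3463 to 3537, also lay below all controls. No tested marker of the 3 lists was listed at 0, since each passed the dim filter. Of the 10 general markers of neurons tested, 3 were called lower with shTdp-43-2 and 2 with shTdp-43-1, and 0 higher with either; the summed level ran from 32410 to 35322 with shTdp-43-2 and from 32028 to 34781 with shTdp-43-1, against 32887 to 35733 in shCont. Of the 9 markers of excitatory neurons tested, 1 was called lower with shTdp-43-2 and 0 higher, and 1 lower and 1 higher with shTdp-43-1. The remaining lists moved little. With shTdp-43-2, 0 of 8 tested markers of the oligodendrocyte lineage and 0 of 9 of microglia were called. Of 6 tested endothelial markers, 1 was called higher there. The lists of progenitors (7 tested) and of choroid plexus and ependyma (5 tested) each had 1 called higher and 1 lower. In cultures measured as a whole, fewer cells of a type and less RNA per cell cannot be told apart, and the part of these shifts in the receptor values was not tested.

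Around the receptors, 22 of 22 listed genes of the Gi and Go pathway, which group II and III receptors use, were tested. Of these, 3 rose with shTdp-43-1 and 4 with shTdp-43-2 and 0 fell with either, 3 of them rising with both. Here and in the counts of the lists below, rose and fell mean called higher and called lower. The median log2 changes of the 22 genes were -0.02 and 0.07. Over all genes 11.1% and 21.9% were called in either direction with the 2 hairpins, and the total counts of this list are near those shares. By direction, 7.76% of all genes were called higher and 14.1% lower with shTdp-43-2. In the mean of the hairpins 4 were called higher and 1 lower, against 19.3% called of all genes. Gnaz, an alpha subunit of the Gi family, rose by log2 0.74 and 0.81. Kcnj6, a potassium channel opened by G protein beta-gamma subunits, rose by 0.61 and 0.57, and the adenylyl cyclase Adcy3 by 0.63 and 0.39. Adcy9 rose by 0.36 with shTdp-43-2 (limma adjusted p = 0.0117).

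Of 17 tested genes of Gq signalling downstream of Grm5, 2 fell with shTdp-43-1, and 4 fell and 2 rose with shTdp-43-2, beside 11.1% and 21.9% of all genes called. The cation channel Trpc4 fell by log2 0.69 with shTdp-43-1, and its change was -0.68 with shTdp-43-2; Trpc7 fell by 0.76 with shTdp-43-1 (-0.31 with shTdp-43-2, not called). With shTdp-43-2 the inositol trisphosphate receptor Itpr1 changed by -0.63 ± 0.125 and the Gq family subunit Gna11 by 0.43 ± 0.0807, both called.

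Of 24 tested scaffolds and partners of the receptors, 1 rose with shTdp-43-1, and 3 rose and 4 fell with shTdp-43-2 (all genes: 11.1% and 21.9% called). Ncdn (neurochondrin, which binds Grm5 and promotes its surface level) rose with both hairpins, by log2 0.86 ± 0.0949 and 0.78 ± 0.0949. With shTdp-43-2 Homer3 changed by -0.42 ± 0.102, Elfn1, an adhesion protein that binds group III receptors across the synapse, by -0.42 ± 0.0971 and Dlg4 by 0.30 ± 0.0857, all called. None of these 3 was called with shTdp-43-1.

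Of 13 genes of desensitisation and trafficking, 2 rose with shTdp-43-1, and 3 rose and 2 fell with shTdp-43-2, where 11.1% and 21.9% of all genes were called. Rgs2, which speeds the turn-off of Gq, rose by 0.51 and 1.07 and also differed between the hairpins (limma adjusted p = 0.00654), and Rgs7 rose by 0.31 and 0.29. Rgs4, another such regulator and singled out after its values were seen, changed by 0.34 ± 0.187 with shTdp-43-1 (not called) and by -0.88 ± 0.187 with shTdp-43-2 (called).

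Of 17 tested genes of receptor-dependent synaptic depression and translation, 1 rose and 2 fell with shTdp-43-1 and 1 rose and 3 fell with shTdp-43-2, again beside 11.1% and 21.9% over all genes. Ptpn5, a phosphatase made at synapses on group I receptor activity, rose by 0.92 and 0.64. The cannabinoid receptor Cnr1 changed by -0.78 and -0.42 and the protease Adam17 by -0.40 and -0.51, each called with both. Cyfip1, a partner of the fragile X protein, changed by -0.03 and -0.59 and was called with shTdp-43-2 only; its difference between the hairpins was called too (limma adjusted p = 0.00163).

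Of 14 tested genes of glutamate supply and uptake, 0 were called by limma with shTdp-43-1 (5 had an unadjusted p under 0.05), against 11.1% of all genes, and 2 rose and 2 fell with shTdp-43-2, against 21.9%. In the mean of the hairpins the vesicular transporters Slc17a7 and Slc17a6 changed by 0.39 ± 0.115 and -0.29 ± 0.0787, and the metabolic enzymes Glul and Glud1 by 0.33 ± 0.0873 and -0.25 ± 0.0639, all called.

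Of 8 tested receptors of the same class C outside the glutamate family, 3 rose with shTdp-43-1 and 2 with shTdp-43-2. Of all 16770 genes, 865 were called higher with shTdp-43-1 and 1301 (7.76%) with shTdp-43-2. Gabbr2, a subunit of the GABA-B receptor, rose by 0.90 ± 0.0932 and 1.13 ± 0.0932, and the calcium-sensing receptor Casr by 0.67 ± 0.120 and 0.78 ± 0.120. Gprc5a rose with shTdp-43-1 by 0.59 ± 0.120, and its change with shTdp-43-2 was 0.28 ± 0.120 (limma adjusted p = 0.129).

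**Figure D5:**
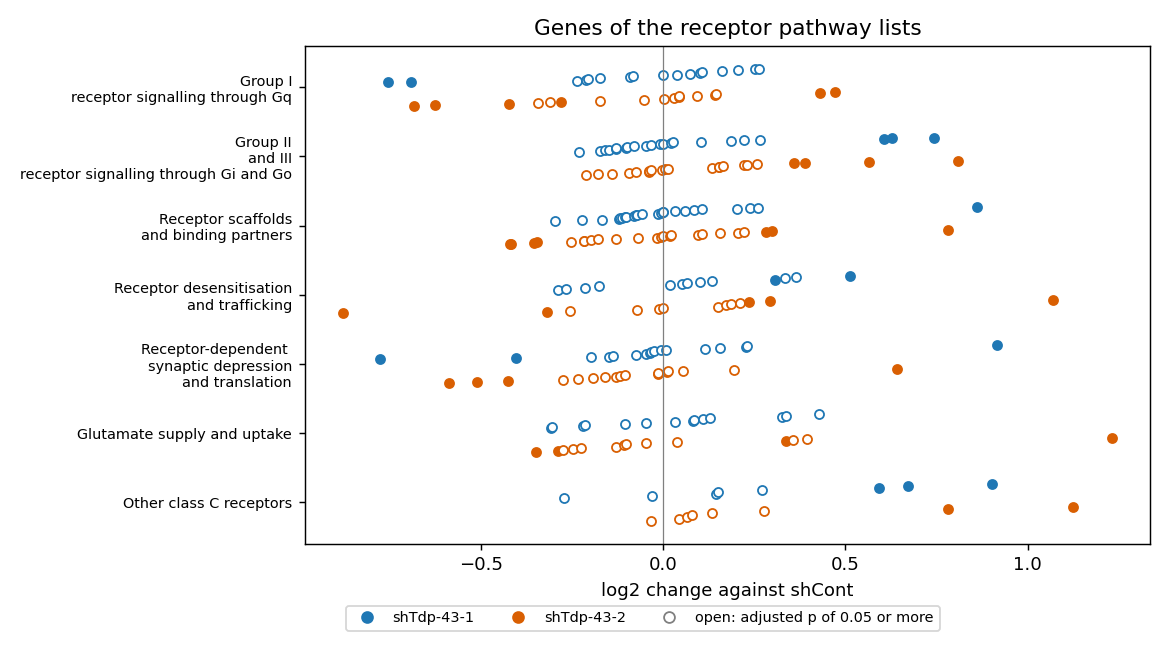
Log2 change against shCont (horizontal axis) of each tested gene of the 7 pathway lists with shTdp-43-1 and shTdp-43-2; filled points have a limma adjusted p under 0.05. In the Gi and Go list 3 genes are filled with shTdp-43-1 and 4 with shTdp-43-2, all to the right of 0.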

How the data were processed

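RNA of 9 samples was measured on the Affymetrix Mouse Exon 1.0 ST array from 100 ng of total RNA each. The deposited table holds log2 values per probe set. The authors computed them by RMA, using Expression Console from Affymetrix on all exon probe sets, per the labels. The submitters' processing notes add the build mm9, and software versions are not stated. RMA subtracts background, brings all arrays to one distribution and summarises probes, so a shift shared by most probes is largely removed and dim probe sets are compressed. With 3 arrays in a group, precision is limited by their number. All 9 columns were used.

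Symbols came from the platform annotation and were updated through RefSeq (GRCm38.p6, for names and promoters). Gene values were fitted over all 3 groups with limma 3.58.1 in R 4.3.3 (lmFit, eBayes, 6 residual degrees of freedom) and probe sets with diffSplice, each with Benjamini-Hochberg adjustment and a threshold of 0.05. The scripts were tested on simulated data, with noise drawn independently for each probe set and array. Such data cannot show how diffSplice p-values behave where probe sets of a gene vary together. An exact permutation test of 3 against 3 arrays cannot go below p = 0.1 (two-sided) and was not used. Members, lists and tests were chosen with earlier results of these data known. Named were all 6 members, Tardbp, probe sets called or at either end of the usage range in the mean of both hairpins, up to 4 genes called in that mean per pathway list, and the 3 most similar genes per member; clone-like names were passed over. Pathway and marker genes that were not tested are not analysed here.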

Additional observations from a re-analysis of the deposited data

Results flagged for a closer look

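Grm2 and Grm8 differed between the hairpins by limma's test of that difference. Grm2 had a log2 difference of -0.56 for shTdp-43-2 minus shTdp-43-1 (limma adjusted p = 0.0141), with all 3 shTdp-43-2 arrays below all 3 shTdp-43-1 arrays. Grm8 had a log2 difference of 0.66 (limma adjusted p = 0.0107), with all 3 shTdp-43-2 arrays above. Groups failed to overlap in this contrast for 27.9% of all genes tested.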

How the results depend on the processing

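The fall of Grm2 and the rise of Grm8 with shTdp-43-2, and the difference of Grm8 between the hairpins, kept direction and call in all 20 other settings, 9 of which left out 1 array each. Grm3 with shTdp-43-2 kept its direction and lost its call when 1 probe set per gene sufficed (0.39) and with the median of the probe sets (0.32), and ran from 0.31 to 0.45 without single arrays. Grm2 between the hairpins lost its call when dim probe sets were kept down to the 25th percentile or all kept (-0.36 in both) and with the median (-0.58), which left 1 receptor called there. In the mean of the hairpins 1 receptor was called with centred arrays, quantile normalization and a trended robust fit, 2 with array weights, and 0 to 1 without single arrays. Probe sets called with shTdp-43-1 numbered 1 with no dim filter and with centred arrays, and 0 to 1 without single arrays. With shTdp-43-2 they numbered 1 at the 75th percentile and 0 to 5 without single arrays. In the mean they numbered 0 at the 25th percentile, 2 with centred arrays and 0 to 2 without single arrays. Usage of probe set 4561070 was 0.81 (shTdp-43-2) and 0.78 (mean) with either weaker dim filter, and ran from 0.87 to 1.11 and from 0.71 to 0.97 without single arrays. That of 4868335 with shTdp-43-2 was -0.55 with no dim filter and ran from -0.68 to -0.48. Beyond what each setting's construction changes, the cause was not tested.

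The replicate numbers were not taken to pair the arrays, since not every same-numbered pair deviated together: r was 0.335 to 0.593 for number 1, 0.128 to 0.320 for number 3 and -0.383 to 0.0406 for number 2, and 5 of 9 arrays were closest to one of their own number. With the replicate block the log2 change with shTdp-43-2 was -0.58 for Grm2 (limma adjusted p = 0.00230), 0.39 for Grm3 (0.0495) and 0.68 for Grm8 (0.000974), 2 receptors were called in the mean of the hairpins (Grm2, limma adjusted p = 0.0306, and Grm8, 0.0142), and 2, 5 and 2 probe sets were called with shTdp-43-1, with shTdp-43-2 and in the mean. Probe set 4561070 was then called with shTdp-43-1 too (usage 0.68, diffSplice adjusted p = 0.0406).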
